A study of Mus musculus with 18 samples.

Results

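Solute carriers are the membrane proteins that move sugars, amino acids, metal ions, nucleotides, vitamins and organic acids into the cell and between its compartments. Their expression was examined in mouse macrophages exposed to silica or iron oxide particles and to bacterial lipopolysaccharide. Members were all genes whose symbol in the deposited probe annotation was Slc followed by a digit and whose mean signal over the 18 arrays was 6 or more on the log2 scale. Each gene was represented by its probe set with the highest mean, and only probe sets with 1 symbol were used. The iron, cystine, arginine, glucose and zinc carriers Slc40a1, Slc11a1, Slc11a2, Slc7a11, Slc7a2, Slc3a2, Slc2a1 and Slc30a1 were not counted as members. This gave 126 members of 12393 genes tested, out of 262 genes with such a symbol, of which 8 were those set aside and 128 had a mean below 6. The threshold used signal levels only. The symbol pattern and the 8 genes set aside were chosen with earlier results of these data known. Just above the threshold stood Slc22a17 at 6.00, Slc9a3r2 and Slc16a8 at 6.07, Slc35a3 at 6.11 and Slc43a3 at 6.23. Just below it stood Slc39a8 at 5.91, Slc38a3 at 5.90, Slc32a1 at 5.73, Slc4a4 at 5.71 and Slc52a3 at 5.68. A mean of 6 or more in every group was found for 118 members, whereas 8 fell below 6 in at least 1 group. Among these 8, Slc13a3 (group means of 4.97 to 8.13) and Slc46a3 (4.61 to 8.35) passed through the groups in which they were high. Their differences are therefore given below as a description, without a p-value. Both nevertheless remain in all counts of called members and in the figures.

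The cells were macrophages from the femoral marrow of C57BL/6 mice aged 4 to 6 weeks, grown in medium conditioned by L929 cells, which supplies macrophage colony-stimulating factor. SPIO-LPS and Silica-LPS cultures stood for 24 h with iron oxide particles (33 nm) or amorphous silica particles (50 nm), were washed, and then received lipopolysaccharide (LPS, 10 ng/ml) for 4 h. LPS cultures had the same LPS step after plain medium, SPIO and Silica cultures had the particles followed by fresh medium, and CON cultures had medium alone. The labels give the particle concentration as 25 mg/ml, a unit that may have been altered and could not be checked here, and they do not say whether the 3 arrays of a group came from separate animals, so the tests below weigh differences against the spread among cultures only.

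Each of the 18 arrays gave a log2 signal per probe set, with array medians of 6.22 to 6.43. Pearson's r over all probe sets was 0.997 to 0.999 for arrays of the same group and 0.946 to 0.998 otherwise. The median standard error of a difference between groups was 0.08, a 95% half-interval of 0.17. All 11 measured macrophage markers of a list of 12 had a CON mean above 6, from Marco at 7.32 to Lyz2 at 14.45. Of these 11, 4 were called higher and 6 lower in SPIO against CON, and 3 higher and 7 lower in LPS against CON. Genes of fibroblasts and of neutrophil precursors were high as well. In CON, 11 of 14 fibroblast genes and 9 of 12 neutrophil genes reached 6, with Col1a2 at 13.55 and S100a8 at 13.12. Signals summed on the linear scale in CON were 43018 to 43637 for fibroblast genes and 22906 to 24419 for neutrophil genes, beside 66382 to 67205 for the 11 macrophage genes. In SPIO they were 35435 to 36443 for fibroblast genes and 16621 to 17323 for neutrophil genes. None of 7 dendritic cell genes and none of 6 T and NK cell genes reached 6 in CON, whereas 2 of 7 B cell, 1 of 6 erythroid and 3 of 5 osteoclast genes did.

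Solute carriers are grouped into families by sequence, and each family tends to carry related substrates. Members of the Slc30, Slc31, Slc39, Slc41 and Slc48 families move zinc, copper, magnesium and heme. Most of Slc25 span the inner mitochondrial membrane, and many of Slc35 bring nucleotide sugars into the Golgi apparatus and the endoplasmic reticulum. In macrophages such carriers are known to supply metals and fuels during activation and to release the breakdown products of ingested material from the phagolysosome.

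LPS changed most solute carriers, and more of them fell than rose. Slc39a14, an importer of zinc and non-transferrin iron, rose 4.51-fold, and both copper carriers of the Slc31 family rose more than 3-fold. The sugar phosphate exchanger Slc37a2 and the glucose carrier Slc2a3 fell more than 3-fold. Another glucose carrier, Slc2a1, set aside from the members, rose by 1.41 on the log2 scale. Of the 126 members, 33 rose and 70 fell in LPS against CON by limma at an adjusted p below 0.05. That is 81.7% of the members, against 79.5% of the 7302 genes with a mean of 6 or more (25.3% higher and 54.2% lower) and 58.2% of all genes, so the share was near that of genes of like signal. Changes of at least 2-fold were called for 11 members upward and 17 downward, where 8.07% and 9.23% of genes with a mean of 6 or more passed. Both sets of counts include Slc13a3 among the rises and Slc46a3 among the falls. The median difference over the members was -0.24, against -0.21 over genes with a mean of 6 or more, and with cyclic loess between arrays it was -0.01, with 44 members rising and 49 falling. The 3' control probe set of Gapdh exceeded the 5' one by 0.52 ± 0.05 in LPS and by 0.69 ± 0.039 in CON (SD, n = 3 each), that of beta-actin by 0.38 ± 0.053 in LPS and by 0.59 ± 0.017 in CON, and the part of these measures of RNA quality in the counts was not tested. Osteoclast genes summed to 1668 to 1883 in LPS and to 796 to 834 in CON, while fibroblast genes summed to 34864 to 36402 in LPS and to 43018 to 43637 in CON, with 8 of 14 called lower and 4 higher. Their part was likewise not tested.

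**Figure D1:**
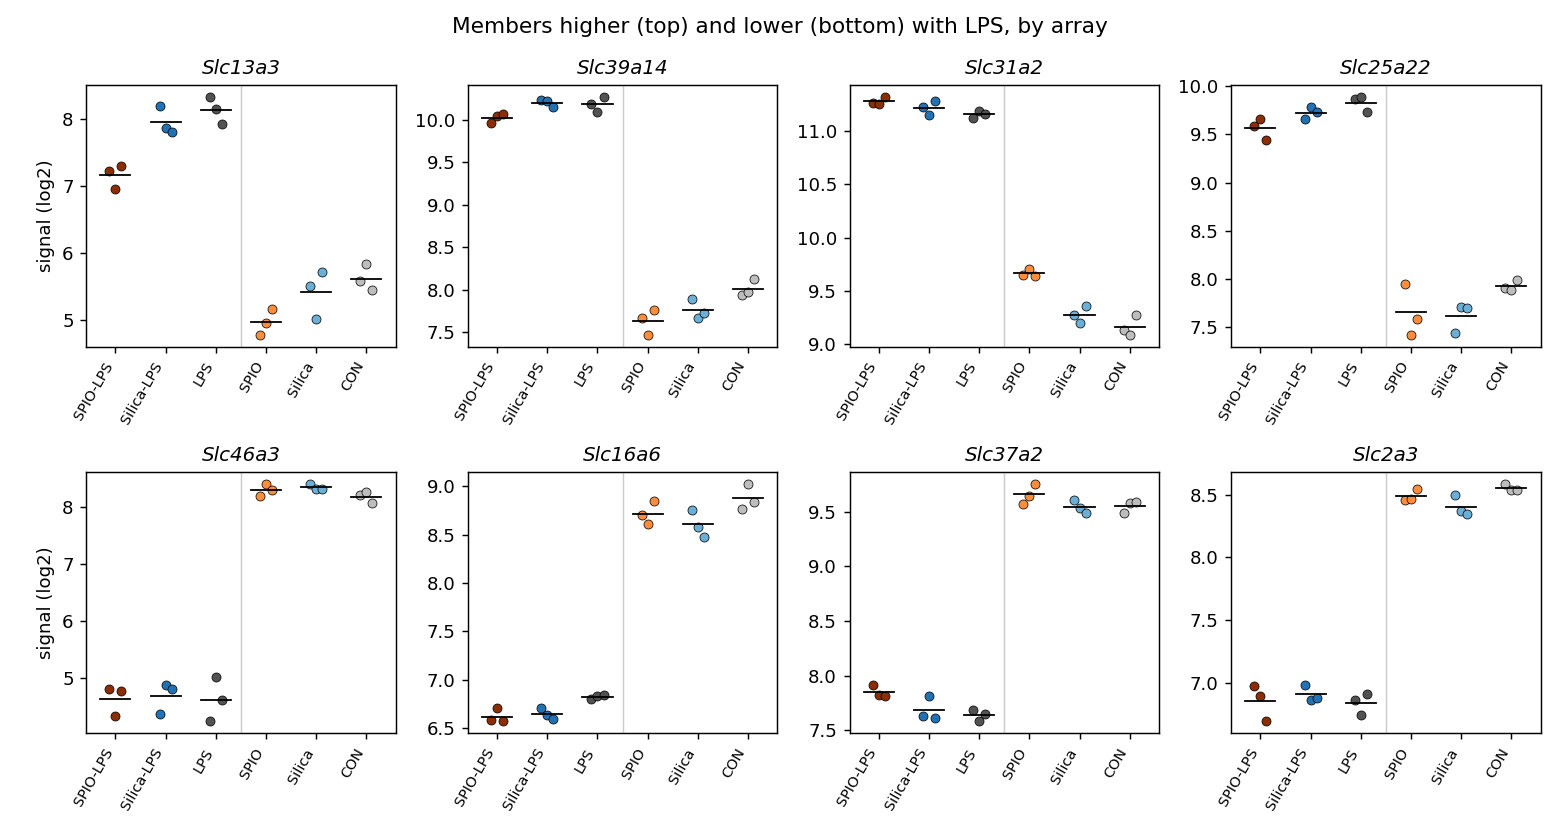
Log2 signal of 8 solute carriers on each array (points) with the mean of each group (line), the vertical rule dividing cultures with LPS from those without. All arrays with LPS lie above all arrays without it for Slc13a3, Slc39a14, Slc31a2 and Slc25a22 in the top row, and below them for Slc46a3, Slc16a6, Slc37a2 and Slc2a3 in the bottom row.

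Among the 21 carriers of zinc, copper, magnesium and heme, 10 rose and 9 fell with LPS, or 11 and 4 with cyclic loess. The LPS counts of this and the following classes stand beside 25.3% higher and 54.2% lower among genes with a mean of 6 or more. No class was tested against these shares. Slc39a14, also called ZIP14, had signals of 10.19, 10.09 and 10.27 in LPS, against 7.94, 7.97 and 8.12 in CON. The groups lay far apart, and the difference was 2.17 ± 0.077 (SE), a 4.51-fold rise with an adjusted p of 5.1e-13. Its second probe set rose by less, 1.01. Slc31a2, an intracellular copper carrier, gave 11.12, 11.19 and 11.16 in LPS, against 9.13, 9.09 and 9.27 in CON. Slc31a1, the high-affinity copper importer of the plasma membrane, gave 10.23, 10.20 and 10.26 in LPS, against 8.52, 8.39 and 8.47 in CON. For neither copper carrier did the groups overlap, and the rises were 1.99 ± 0.0555 (adjusted p = 2.18e-14) and 1.77 ± 0.0477 (adjusted p = 1.42e-14). Further probe sets of Slc31a2 and Slc31a1 rose by 2.48 and 1.55. Smaller rises were called for the Golgi zinc carrier Slc30a6 (0.79), for Slc30a4 (0.52), for Slc39a13 (0.50), for Slc41a2 (0.48), a magnesium carrier, and for Slc39a1 (0.47). The heme carrier Slc48a1, which returns heme from the phagolysosome to the cytosol, had 10.20, 10.23 and 10.37 in LPS, against 11.10, 11.16 and 11.17 in CON. That fall of 0.88 on the log2 scale came from 1 of its 2 probe sets, since the other differed by -0.04 (adjusted p = 0.591). Slc30a5, a zinc carrier of the secretory pathway, fell by 0.79.

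The start of Slc31a2 is shown because the gene rose with LPS and, as given further on, with iron oxide. The window runs from 250 bases before the RefSeq transcript start to 50 bases after it on GRCm38.p6 at chr4:62286179-62286478, plus strand. Capitals mark the only match to TGACNNNGC, the core of the antioxidant response element, searched on both strands and found here on the reverse one as GCNNNGTCA.
Slc31a2: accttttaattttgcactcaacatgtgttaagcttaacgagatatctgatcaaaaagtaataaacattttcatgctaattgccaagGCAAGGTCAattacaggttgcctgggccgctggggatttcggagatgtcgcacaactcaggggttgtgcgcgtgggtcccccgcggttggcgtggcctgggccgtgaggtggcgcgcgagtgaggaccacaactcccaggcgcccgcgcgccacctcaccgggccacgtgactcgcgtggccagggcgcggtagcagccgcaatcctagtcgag
Such a match was present in 22.5% of 138 windows of the 97 members that had one, and in 12.4% of 32851 windows of all genes. The other motifs, likewise searched on both strands, were found in 2.17% of member windows and 1.68% of all windows for GGGANTTCC (NF-kB type), in 0.725% and 1.63% for a longer NF-kB type motif, in 29.7% and 15.4% for TGCGCNC (metal response element), in 2.17% and 0.974% for the CLEAR motif of lysosomal genes, and in 2.9% and 3.97% for TGATGNAA (amino acid response type). The shares were not tested, since members were chosen partly by level. Windows of all genes covered genes of any signal, and the share among genes of like signal was not counted. Overlapping windows of a gene can hold the same match, as for GGGANTTCC in Slc7a7, so windows are not independent. A match describes letters only and was not tested as a binding site.

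Of 26 mitochondrial carriers of the Slc25 family, 17 were lower and 7 higher in LPS than in CON, and 15 and 7 with cyclic loess. Most genes of like signal were lower too, with 54.2% lower and 25.3% higher among those with a mean of 6 or more. Those that rose included Slc25a22, which carries glutamate, Slc25a37 and Slc25a28, the mitoferrins that bring iron to heme and iron-sulfur cluster synthesis, and Slc25a25, an ATP-magnesium and phosphate carrier. Slc25a22 had 9.87, 9.89 and 9.73 in LPS, against 7.90, 7.88 and 7.99 in CON. Its groups were far apart, and the difference was 1.91 ± 0.109 with an adjusted p of 2.19e-10. Slc25a37 had 10.01, 9.88 and 9.79 in LPS, against 8.27, 8.41 and 8.29 in CON, again without overlap. Its rise was 1.57 ± 0.0567 (adjusted p = 6.43e-13), and those of Slc25a28 and Slc25a25 were 0.88 and 0.87. Slc25a44, which carries branched-chain amino acids, rose by 1.23 on the probe set used, while its other probe sets differed by 0.21 and 0.02. Falls were called for the aspartate-glutamate carrier Slc25a13 (-1.34 ± 0.104), the pyrimidine nucleotide carrier Slc25a36 (-1.30 ± 0.0497), the ornithine carrier Slc25a15 (-0.96), the S-adenosylmethionine carrier Slc25a26 (-0.94), the carnitine-acylcarnitine carrier Slc25a20 (-0.62) and the ADP/ATP exchangers Slc25a5 (-0.49) and Slc25a4 (-0.35).

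The sugar carriers among the members moved mostly downward under LPS, with 6 of 8 lower, 2 higher and a median of -0.94. The split was the same with cyclic loess, and 54.2% of genes with a mean of 6 or more were called lower. Slc2a1, a glucose carrier set aside from the members and absent from these counts, had a mean of 10.51 and rose by 1.41. Slc2a3, the glucose carrier GLUT3, had 6.86, 6.74 and 6.91 in LPS, against 8.59, 8.54 and 8.54 in CON. Slc37a2, a sugar phosphate exchanger of the endoplasmic reticulum, had 7.68, 7.58 and 7.65 in LPS, against 9.49, 9.58 and 9.59 in CON. Both stood apart on every array, with differences of -1.72 ± 0.0687 (adjusted p = 2.22e-12) and -1.92 ± 0.0619 (adjusted p = 1.51e-13). A second probe set of Slc2a3 fell by 1.51. The intracellular glucose carrier Slc2a8 (-1.08) and the glucose 6-phosphate carrier Slc37a4 (-0.80) fell as well, and the urate carrier Slc2a9, with a lowest group mean of 5.89, differed by -1.31. The insulin-responsive glucose carrier Slc2a4 (0.33) and Slc37a3 (0.21) were called higher, the second with a further probe set called lower at -0.53.

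Carriers of nucleotide sugars, their relatives and acetyl-CoA fell in 13 of 17 cases and rose in none with LPS, or in 8 and 1 with cyclic loess. Of genes with a mean of 6 or more, 54.2% fell and 25.3% rose. Slc35a1, which brings CMP-sialic acid into the Golgi, had 6.61, 6.65 and 6.80 in LPS, against 8.03, 7.98 and 8.04 in CON. The groups were separate, at -1.33 ± 0.0705 and an adjusted p of 8.19e-11. Slc35a5 fell by 1.07, the UDP-galactose carrier Slc35a2 by 0.84 and Slc35b2, which carries the sulfate donor of the Golgi, by 0.61.

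Amino acid and peptide carriers split in both directions, with 4 higher and 8 lower of 19, a split that turned to 8 higher and 5 lower with cyclic loess. Slc15a3, which exports peptides and histidine from endolysosomes, had 12.64, 12.66 and 12.72 in LPS, against 10.78, 10.82 and 10.71 in CON. The rise of 1.90 ± 0.0475 had an adjusted p of 5.8e-15, and the spread within each group was small beside it. Its relative Slc15a4 differed by -0.10 and was not called. Slc7a8, an exchanger of neutral amino acids, rose by 0.92 and Slc7a7, an exporter of cationic amino acids, by 0.60. Slc66a1, a lysosomal exporter of cationic amino acids, gave 6.91, 7.10 and 7.05 in LPS, against 8.52, 8.54 and 8.39 in CON, and fell by 1.46 on the log2 scale (SE 0.0659, adjusted p = 1.04e-11). The sodium-coupled Slc38a2 fell by 1.08 and the creatine carrier Slc6a8 by 0.92, although another probe set of Slc6a8 was called higher at 0.25. The gene next to Slc38a2 on chromosome 15, Slc38a1, was the only neighbouring pair among the members and differed by -0.08.

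Carriers of carboxylates and organic ions split under LPS, with 3 of 11 higher and 5 lower. Slc13a3, a sodium-coupled carrier of dicarboxylates such as succinate, had 8.33, 8.15 and 7.92 in LPS, against 5.58, 5.83 and 5.44 in CON. No LPS array came near a CON array, and the difference was 2.52, with its other probe sets at 1.67, 0.26 and 0.07. Slc16a6, a member of the monocarboxylate carrier family, had 6.80, 6.83 and 6.84 in LPS, against 8.77, 9.03 and 8.84 in CON, and fell by 2.06 on the log2 scale (SE 0.0802, adjusted p = 1.68e-12). Slc16a7, the monocarboxylate carrier MCT2, fell by 1.22, and Slc22a4, a carrier of ergothioneine, by 1.03. Slc16a1, the lactate carrier MCT1, rose by 0.38.

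Among 6 nucleoside and vitamin carriers 4 fell and 1 rose under LPS. Slc46a3, a lysosomal carrier, had 4.23, 5.01 and 4.60 in LPS, against 8.22, 8.27 and 8.07 in CON. The difference was -3.57, and its LPS arrays lay near the low end of the scale, where differences are understated. Slc23a2, the vitamin C carrier, had 10.55, 10.52 and 10.74 in LPS, against 9.20, 9.17 and 9.21 in CON, a rise of 1.41 ± 0.0652. The thiamine carrier Slc19a2 fell by 0.95 and the lysosomal nucleoside carrier Slc29a3 by 0.84. The window around the start of Slc46a3 is shown because it held 2 matches to TGACNNNGC, marked in capitals. It lies at chr5:147894766-147895065 on the minus strand of GRCm38.p6, from RefSeq.
Slc46a3: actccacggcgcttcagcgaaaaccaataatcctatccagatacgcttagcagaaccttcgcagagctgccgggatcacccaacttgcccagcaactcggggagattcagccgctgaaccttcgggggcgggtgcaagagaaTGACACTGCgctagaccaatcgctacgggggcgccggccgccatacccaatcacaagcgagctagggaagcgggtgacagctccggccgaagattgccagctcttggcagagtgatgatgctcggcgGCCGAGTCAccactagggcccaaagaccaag

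Of the remaining classes, 4 of 11 inorganic ion carriers rose and 6 fell, or 4 and 3 with cyclic loess, and 1 of 4 fatty acid and choline carriers rose and 2 fell, or 2 and 0 with cyclic loess. Slc12a4, a potassium-chloride cotransporter, rose by 1.46 ± 0.0485 and Slc8b1, the sodium-calcium exchanger of mitochondria, fell by 1.59 ± 0.0561. Slc44a1, a choline carrier, rose by 1.34 ± 0.0508 on the probe set used, while a second one differed by -0.06 (adjusted p = 0.377). Of 3 members that are no carriers, Slc9a3r1, a scaffold protein that binds ion exchangers, rose by 0.67. Few members stayed nearly level over all 6 groups. Among members with a mean of 8 or more, the smallest range of group means was 0.24 for the zinc carrier Slc30a9, followed by 0.30 for Slc7a6, which exchanges cationic amino acids, 0.30 for the sulfate carrier Slc26a2, 0.31 for the mitochondrial phosphate carrier Slc25a3 and 0.34 for Slc35b3.

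**Figure D2:**
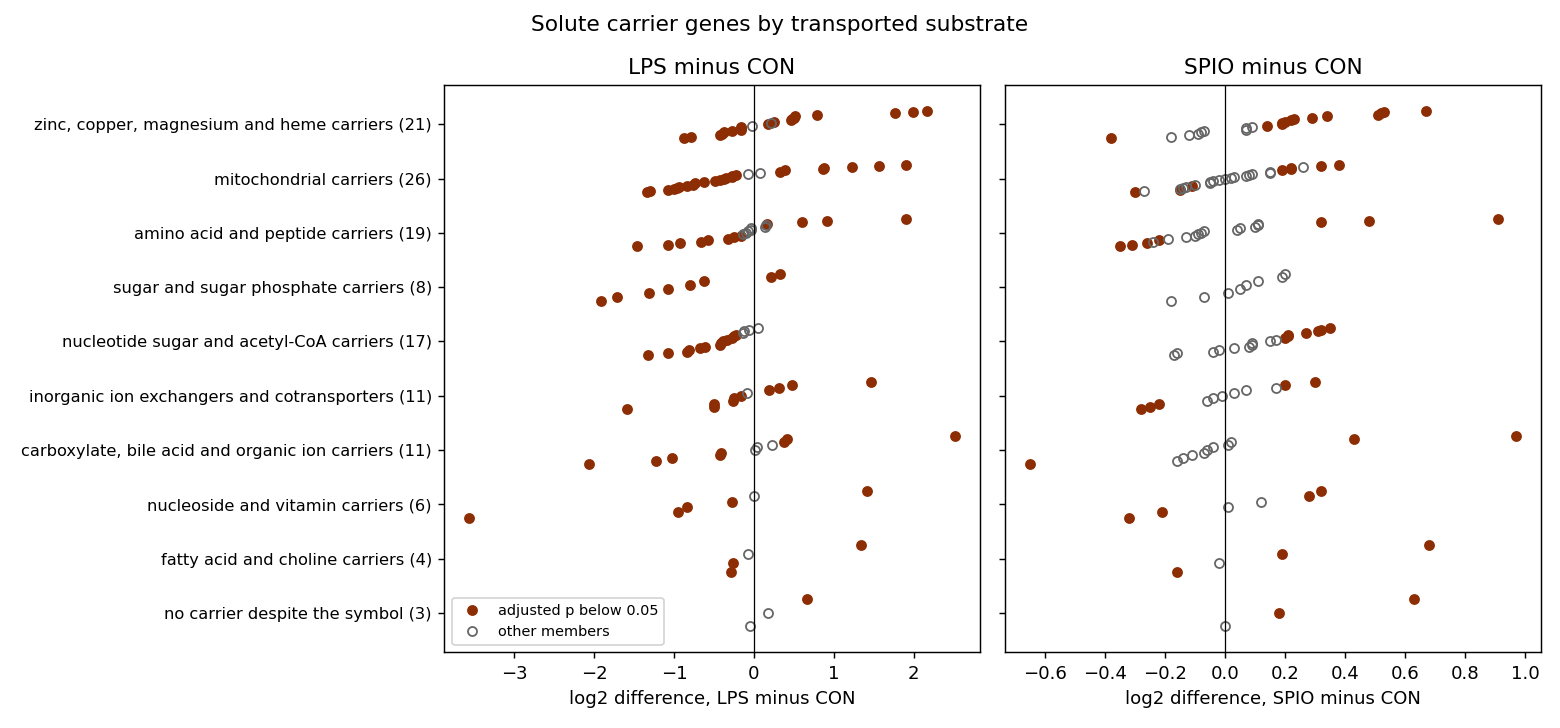
Log2 difference of each member by substrate class, LPS minus CON (left) and SPIO minus CON (right, on a narrower scale), with filled points for members called by limma at an adjusted p below 0.05. Sugar carriers lie mostly left of 0 under LPS and none is called under SPIO, whereas 12 of 21 metal and heme carriers are called higher under SPIO. Of genes with a mean of 6 or more, 54.2% are called lower under LPS and 30.9% higher under SPIO. The glucose carrier Slc2a1, set aside from the members, is not shown. Under LPS the balance of the amino acid class turns from 4 higher and 8 lower to 8 higher and 5 lower with cyclic loess.

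Iron oxide alone moved fewer members, and by less. Slc22a4 and the creatine carrier Slc6a8 rose most, nearly 2-fold, followed by the choline carrier Slc44a2, the copper importer Slc31a1, the scaffold Slc9a3r1, the heme carrier Slc48a1, the magnesium carrier Slc41a2 and the copper carrier Slc31a2. Slc13a3 fell most. In SPIO against CON, 37 members rose and 15 fell, with sizes of 0.14 to 0.97 upward and 0.11 to 0.65 downward and none at 2-fold. The 52 called were 41.3% of the members, 29.4% higher and 11.9% lower. Of genes with a mean of 6 or more, 49.1% were called, 30.9% higher and 18.3% lower, and of all genes 33.8%, so the members' share was below that of genes of like signal. The members' median was 0.04, against 0.06 over genes with a mean of 6 or more. With cyclic loess 33 rose and 21 fell. The fibroblast and neutrophil genes given above were lower in SPIO than in CON, with 9 of 14 and 8 of 12 called lower. The 3' control probe set exceeded the 5' one by 0.47 ± 0.026 in SPIO and by 0.69 ± 0.039 in CON for Gapdh, and by 0.66 ± 0.015 in SPIO and by 0.59 ± 0.017 in CON for beta-actin (SD, n = 3 each). The part of these cell type genes and of RNA quality in the members' changes was not tested. In bulk RNA of this kind, fewer cells of a type and less RNA per cell cannot be told apart.

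Slc22a4 had 8.71, 8.66 and 8.80 in SPIO, against 7.59, 7.90 and 7.78 in CON. Slc6a8 had 11.04, 11.14 and 11.13 in SPIO, against 10.11, 10.22 and 10.26 in CON. For both, the lowest SPIO array was well above the highest CON array, and the rises were 0.97 ± 0.0862 (1.96-fold, adjusted p = 3.57e-07) and 0.91 ± 0.0519 (1.87-fold, adjusted p = 3.04e-09). Slc44a2 had 9.25, 9.37 and 9.25 in SPIO, against 8.57, 8.61 and 8.66 in CON. Slc31a1 had 9.11, 9.15 and 9.11 in SPIO, against 8.52, 8.39 and 8.47 in CON. Both rose without overlap, by 0.68 ± 0.0468 (adjusted p = 2.21e-08) and 0.67 ± 0.0477 (adjusted p = 3.22e-08). A second probe set of Slc44a2 differed by 0.27. Slc48a1 had 11.63, 11.66 and 11.72 in SPIO, against 11.10, 11.16 and 11.17 in CON, a rise of 0.53 ± 0.0503 (adjusted p = 7.88e-07) that its other probe set also showed, at 0.74. Slc9a3r1 had 10.69, 10.69 and 10.75 in SPIO, against 10.07, 10.09 and 10.07 in CON. Its rise of 0.63 ± 0.0435 had an adjusted p of 2.15e-08, and arrays of each group differed among themselves by far less.

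The start of Slc44a2 is shown because this choline carrier was called higher after either particle alone, as given further on for silica. The RefSeq window, at the upstream start of the gene, lies at chr9:21320469-21320768 on the plus strand of GRCm38.p6, with 1 match to TGACNNNGC in capitals, on the reverse strand and across the transcript start.
Slc44a2: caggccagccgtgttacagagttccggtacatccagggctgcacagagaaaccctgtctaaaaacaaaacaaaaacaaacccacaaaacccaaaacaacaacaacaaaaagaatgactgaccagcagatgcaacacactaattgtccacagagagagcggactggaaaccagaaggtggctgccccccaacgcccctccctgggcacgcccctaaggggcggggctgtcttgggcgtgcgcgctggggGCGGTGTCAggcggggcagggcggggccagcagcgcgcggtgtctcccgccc

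By substrate, 12 of the 21 metal and heme carriers rose with iron oxide and 1 fell, with a median of 0.19, or 11 and 2 with cyclic loess. The SPIO counts of this and the following classes stand beside 30.9% higher and 18.3% lower among genes with a mean of 6 or more. No class was tested against these shares. Besides those named, the metal carriers that rose included Slc41a2 (0.52 ± 0.0496), Slc31a2 (0.51 ± 0.0555), the zinc importer Slc39a4 (0.34) and Slc39a9 (0.29). Slc39a6 was called higher at 0.19 and lower at -0.24 on another probe set. The single fall was that of Slc39a14, with 7.67, 7.47 and 7.76 in SPIO, against 7.94, 7.97 and 8.12 in CON (-0.38 ± 0.077, adjusted p = 0.00117). Nucleotide sugar and acetyl-CoA carriers rose in 7 of 17 cases and fell in none, or 5 and 2 with cyclic loess. They included Slc33a1 (0.35), Slc35f5 (0.32), Slc35b4 (0.31) and Slc35a2 (0.21). In Silica against CON, Slc33a1 differed by 0.37 and Slc35a2 by 0.29, neither of them called. None of the 8 sugar carriers was called, with differences from -0.18 to 0.20.

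Mitochondrial carriers changed little with iron oxide, with 5 of 26 higher and 3 lower, or 5 and 5 with cyclic loess. Slc25a26 rose by 0.38 ± 0.045, and the pyrimidine nucleotide carrier Slc25a33 fell by 0.30 ± 0.0675. Slc66a1, the lysosomal exporter of cationic amino acids, rose by 0.48 ± 0.0659, and the endolysosomal peptide carrier Slc15a4 by 0.32. Slc7a5, which imports large neutral amino acids, had 8.25, 8.10 and 8.08 in SPIO, against 8.51, 8.35 and 8.49 in CON, a fall of 0.31 on the log2 scale (SE 0.0577, adjusted p = 0.000587), and Slc7a8 fell by 0.26. Slc13a3 had 4.78, 4.96 and 5.16 in SPIO, against 5.58, 5.83 and 5.44 in CON. The fall of 0.65 on the log2 scale (SE 0.171) lay in the low part of the signal range and is given as a description. The thiamine carrier Slc19a2 fell by 0.32 and the folate carrier Slc19a1 by 0.21, but the mean over the probe sets of Slc19a2 differed by -0.14 and was not called (adjusted p = 0.0777).

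**Figure D3:**
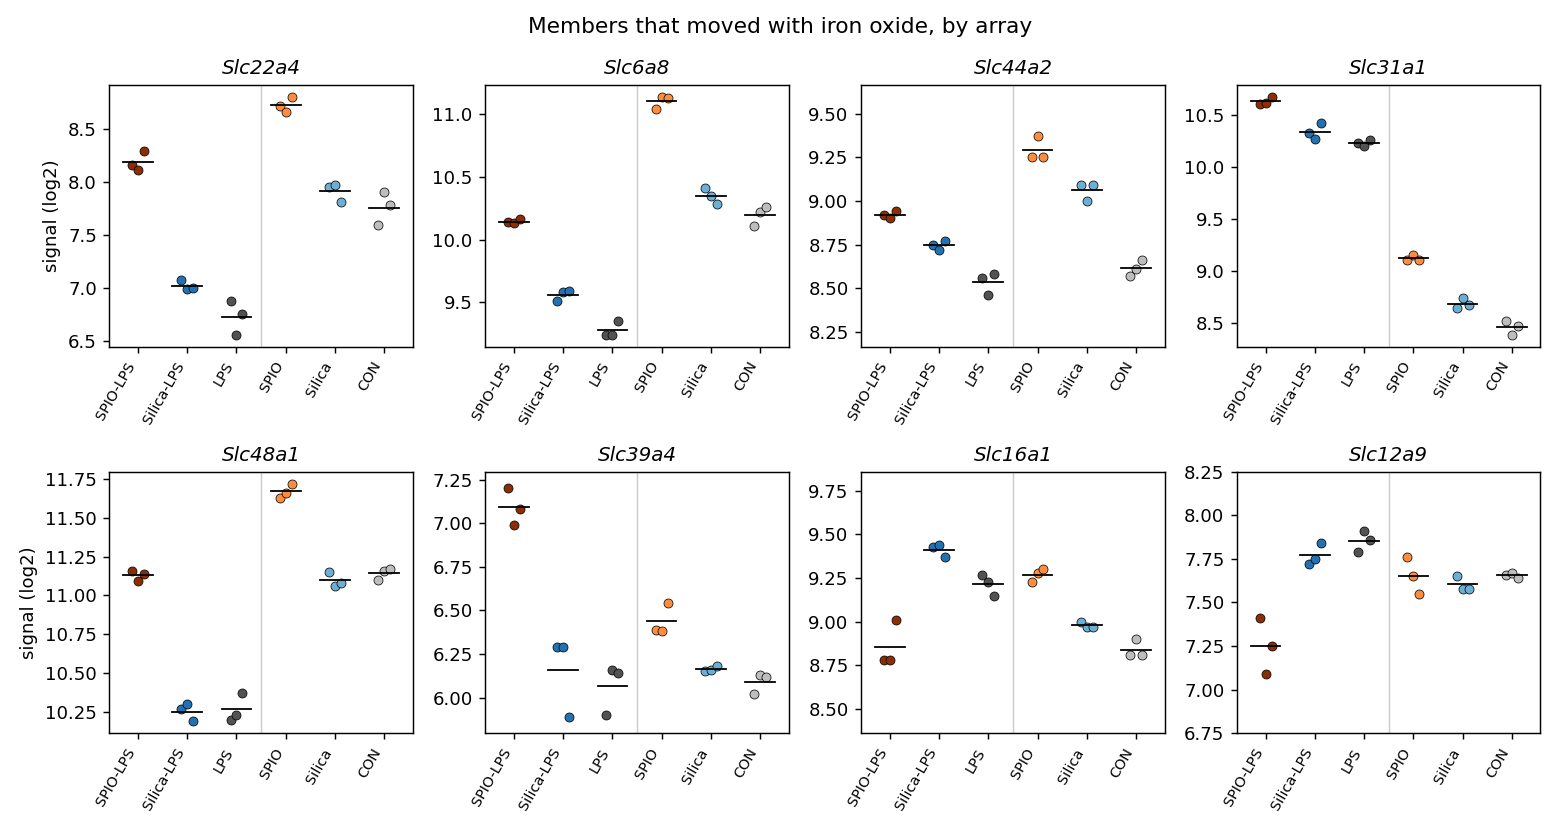
Log2 signal of 8 members on each array (points) with group means (lines), cultures with LPS left of the vertical rule. SPIO-LPS arrays lie above LPS arrays and SPIO arrays above CON arrays for Slc22a4, Slc6a8, Slc44a2, Slc31a1, Slc48a1 and Slc39a4, while Slc16a1 is higher in SPIO than in CON and lower in SPIO-LPS than in LPS.

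In cells that received LPS after iron oxide, the carriers of ergothioneine, creatine and heme again stood higher, together with Slc39a4. In SPIO-LPS against LPS, 32 members rose and 17 fell, with 2 rises of at least 2-fold. The 49 called were 38.9% of the members, 25.4% higher and 13.5% lower. Of genes with a mean of 6 or more, 48.5% were called, 28.6% higher and 20% lower, and of all genes 32.7%, so the members' share was again below that of genes of like signal. Of genes with a mean of 6 or more, 0.835% rose by at least 2-fold. The members' median was 0.05. With cyclic loess 28 rose and 24 fell. Fibroblast genes summed to 28310 to 29184 in SPIO-LPS and 34864 to 36402 in LPS, and neutrophil genes to 18108 to 18712 in SPIO-LPS and 25129 to 25566 in LPS. For Gapdh the 3' control exceeded the 5' one by 0.40 ± 0.064 in SPIO-LPS and by 0.52 ± 0.05 in LPS, and for beta-actin by 0.52 ± 0.014 in SPIO-LPS and by 0.38 ± 0.053 in LPS (SD, n = 3 each). Their part was not tested here either.

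Slc22a4 had 8.16, 8.11 and 8.29 in SPIO-LPS, against 6.88, 6.56 and 6.75 in LPS. The gap between the groups was several times the spread within them, and the rise was 1.46 ± 0.0862 (2.75-fold, adjusted p = 3.79e-09). Slc39a4 had 7.20, 6.99 and 7.08 in SPIO-LPS, against 5.90, 6.16 and 6.14 in LPS, a rise of 1.02 ± 0.0974 (2.03-fold, adjusted p = 6.83e-07) near the threshold of 6. Slc48a1 had 11.16, 11.09 and 11.14 in SPIO-LPS, against 10.20, 10.23 and 10.37 in LPS. Slc6a8 had 10.14, 10.13 and 10.16 in SPIO-LPS, against 9.24, 9.24 and 9.35 in LPS. These carriers of heme and creatine were separate on every array and rose by 0.87 ± 0.0503 (adjusted p = 3.03e-09) and 0.87 ± 0.0519 (adjusted p = 4.03e-09), with 0.91 on the other probe set of Slc48a1. Slc66a1 rose by 0.61, Slc41a2 by 0.47, Slc15a4 by 0.42, Slc30a6 by 0.41, Slc31a1 by 0.40 and the mitoferrin Slc25a37 by 0.38.

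Among falls, Slc13a3 had 7.23, 6.95 and 7.30 in SPIO-LPS, against 8.33, 8.15 and 7.92 in LPS. It fell by 0.97 on the log2 scale (SE 0.171), given as a description, and both groups remained above the cultures without LPS. Slc12a9, a relative of the cation-chloride cotransporters, fell by 0.60 (SE 0.071). Slc7a7 had 7.87 on all 3 SPIO-LPS arrays, against 8.29, 8.27 and 8.39 in LPS, a fall of 0.45 on the log2 scale (SE 0.0566), and Slc7a5 fell by 0.41. Slc25a28 fell by 0.36, in the direction opposite to the other mitoferrin. The start of Slc7a7 is shown as the 1 printed window with an NF-kB type match, GGGANTTCC, in capitals. It lies at chr14:54417653-54417952 on the minus strand of GRCm38.p6, at one of several RefSeq starts of the gene.
Slc7a7: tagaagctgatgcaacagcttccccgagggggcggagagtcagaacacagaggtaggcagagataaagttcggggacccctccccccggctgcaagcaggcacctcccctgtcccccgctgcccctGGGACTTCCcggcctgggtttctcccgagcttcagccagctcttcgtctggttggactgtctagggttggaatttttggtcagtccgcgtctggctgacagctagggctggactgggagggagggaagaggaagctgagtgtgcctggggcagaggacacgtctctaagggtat

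Arrays of SPIO against CON share none with those of SPIO-LPS against LPS, so the calls can be set side by side. Of the members, 32 were called in both, which is 65.3% of the 49 with LPS and 61.5% of the 52 without LPS, against 69.2% and 68.3% for genes with a mean of 6 or more. Of these 32, 21 rose in both, 9 fell in both and 2 moved in opposite directions. The opposite pair was Slc16a1, at -0.36 with LPS and 0.43 without it, and Slc25a33, at 0.34 with LPS and -0.30 without it.

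The interaction asked whether the iron oxide difference itself differed with LPS, as SPIO-LPS minus LPS less SPIO minus CON. It was called for 17 members, 6 positive and 11 negative, beside 13.4% of genes with a mean of 6 or more (5.64% positive and 7.76% negative) and 8.8% of all genes, so the members' share did not stand out. Slc16a1 had 8.78, 8.78 and 9.01 in SPIO-LPS, against 9.27, 9.23 and 9.15 in LPS. Without LPS it had 9.23, 9.28 and 9.30 in SPIO, against 8.81, 8.90 and 8.81 in CON. The order of the groups was reversed by LPS, and the interaction was -0.79 ± 0.0822 (adjusted p = 1.15e-05). Slc9a3r1 had 10.85, 10.76 and 10.70 in SPIO-LPS, against 10.75, 10.71 and 10.77 in LPS. Those groups overlapped, unlike SPIO and CON, and the interaction was -0.60 ± 0.0615 (adjusted p = 9.56e-06), with its other probe sets at -0.49 and -0.38. Slc12a9 had 7.41, 7.09 and 7.25 in SPIO-LPS, against 7.79, 7.91 and 7.86 in LPS, and 7.76, 7.65 and 7.55 in SPIO, against 7.66, 7.67 and 7.64 in CON. It fell with iron oxide in cultures with LPS, differed by -0.01 without it, and had an interaction of -0.60 ± 0.1 (adjusted p = 0.00101).

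Further negative interactions were called for both copper carriers, Slc31a2 (-0.39) and Slc31a1 (-0.27), for Slc44a2 (-0.29), Slc29a3 (-0.36), Slc7a7 (-0.32), Slc25a24 (-0.43), Slc25a28 (-0.21) and Slc35f5 (-0.23). Positive ones were called for Slc39a4 (0.68 ± 0.138), Slc25a33 (0.64 ± 0.0954), Slc22a4 (0.49 ± 0.122), Slc43a3 (0.41), a carrier of purine bases, Slc48a1 (0.34 ± 0.0711) and Slc44a1 (0.29). The second probe set of Slc48a1 gave 0.16 (adjusted p = 0.272). Several of these calls rested on single arrays. That of Slc22a4 was lost without CON 2 (adjusted p = 0.0524) or SPIO 2 (0.0506), and that of Slc31a1 without CON 2 (0.0562), SPIO 2 (0.0514) or SPIO-LPS 1 (0.0503). Slc43a3 lost its call without CON 1, CON 3, LPS 2, SPIO 1, SPIO 3, SPIO-LPS 2 or SPIO-LPS 3, at adjusted p-values up to 0.0806. Slc25a24 lost it without CON 2, CON 3, LPS 1, LPS 2, SPIO 2, SPIO 3, SPIO-LPS 1 or SPIO-LPS 3, at values up to 0.0978. Without SPIO 2 the count of members called was 10.

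**Figure D4:**
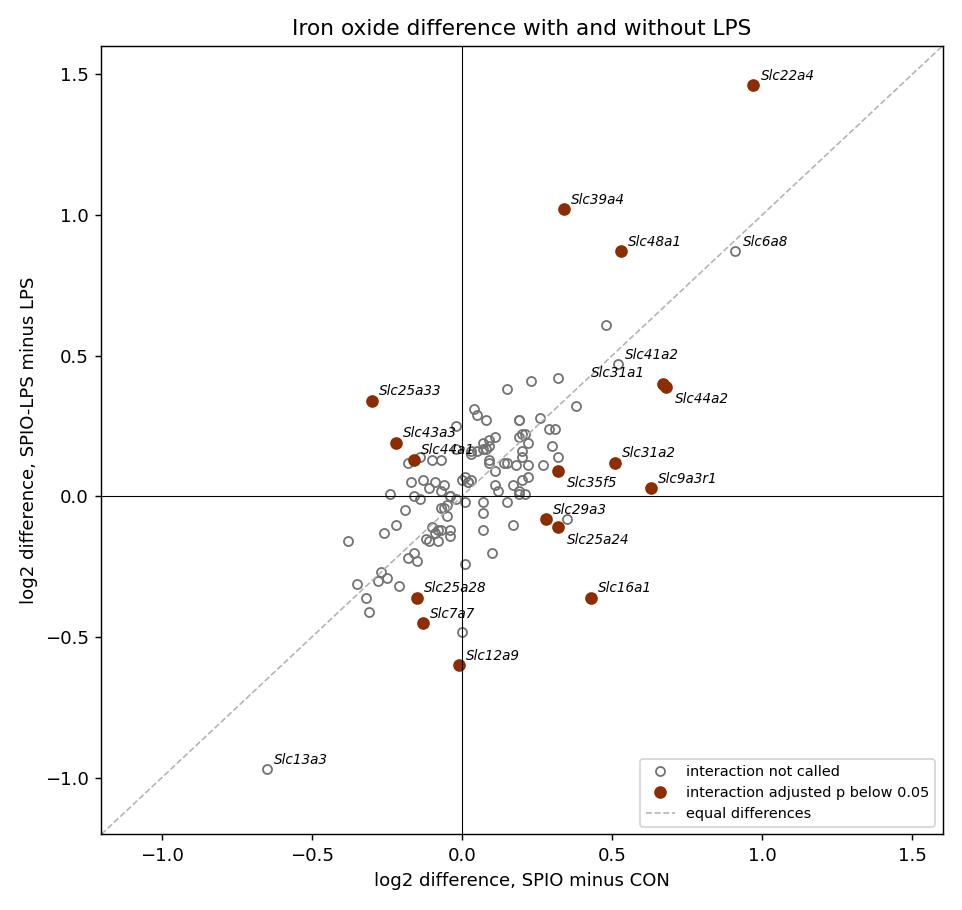
Each point is a solute carrier, with the log2 difference SPIO minus CON on the horizontal axis and SPIO-LPS minus LPS on the vertical axis, and filled points for the 17 members with a called interaction. Slc22a4, Slc39a4 and Slc48a1 lie above the line of equal differences, and Slc16a1 and Slc9a3r1 lie far below it.

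Few members were called with silica. In Silica against CON, 4 rose and none fell by limma, or 4 and 1 with cyclic loess. The 4 called by limma were 3.17% of the members, beside 6.23% of genes with a mean of 6 or more (3.94% higher and 2.29% lower) and 4.02% of all genes. An unadjusted limma p below 0.05 was found for 30 of 126 members, beside 1827 of 7302 genes with a mean of 6 or more and 2213 of all 12393 genes. Fibroblast genes summed to 45687 to 48406 in Silica and to 43018 to 43637 in CON, with 4 of 14 called higher and 2 lower. The 3' control exceeded the 5' one by 0.56 ± 0.02 in Silica and by 0.69 ± 0.039 in CON for Gapdh. For beta-actin these values were 0.62 ± 0.018 and 0.59 ± 0.017 (SD, n = 3 each). Their part was not tested. Slc44a2 had 9.09, 9.0 and 9.09 in Silica, against 8.57, 8.61 and 8.66 in CON, and rose by 0.45 ± 0.0468 (1.36-fold, adjusted p = 0.00016), with no overlap. The others were Slc25a15 at 0.39 ± 0.104 (adjusted p = 0.0488), Slc31a1 at 0.23 ± 0.0477 (adjusted p = 0.016) and Slc41a2 at 0.21 ± 0.0496 (adjusted p = 0.0247). Slc31a1 lost its call without CON 2 (0.0864) or Silica 2 (0.0674), and Slc41a2 without CON 1, CON 2, Silica 1 or Silica 2 (0.0603 to 0.125). Slc25a15 lost its call without any 1 array of CON, LPS, Silica, Silica-LPS or SPIO, or without SPIO-LPS 1, at 0.0511 to 0.155. Without CON 1 the count was 2, and without CON 2 or Silica 2 it was 1.

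In Silica-LPS against LPS, 4 members rose and none fell by limma, or 3.17% of the members. That share stands beside 4.25% of genes with a mean of 6 or more (2.97% higher and 1.27% lower) and 2.86% of all genes. An unadjusted p below 0.05 was found for 22 of 126 members, beside 1535 of 7302 genes with a mean of 6 or more. Slc6a8 had 9.51, 9.58 and 9.59 in Silica-LPS, against 9.24, 9.24 and 9.35 in LPS. These groups did not overlap, and the rise was 0.28 ± 0.0519 (adjusted p = 0.00668), which no single left-out array changed to not called. In a fit on only the arrays of the groups compared, however, Slc6a8 was not called (adjusted p = 0.0926). Slc15a4 rose by 0.24 ± 0.0506 (adjusted p = 0.0168), Slc25a37 by 0.23 ± 0.0567 (0.043) and Slc44a2 by 0.21 ± 0.0468 (0.0243). Slc15a4 lost its call without LPS 1, LPS 2, Silica-LPS 1 or Silica-LPS 2 (0.058 to 0.0811), and Slc44a2 without LPS 2 or any Silica-LPS array (0.0518 to 0.115). The mean over the probe sets of Slc44a2 differed by 0.08 and was not called (adjusted p = 0.388). Slc25a37 lost its call without any Silica-LPS or SPIO array, LPS 2, LPS 3, CON 3, Silica 3, SPIO-LPS 1 or SPIO-LPS 2 (0.0531 to 0.152). Without LPS 2, Silica-LPS 1 or Silica-LPS 2 the count was 1, and without Silica-LPS 3 it was 2. The interaction of silica with LPS was called by limma for no member, beside 0.0161% of all genes and 0.0274% of those with a mean of 6 or more, 0.0137% in each direction. Its unadjusted p was below 0.05 for 8 of 126 members, beside 582 of 7302 genes with a mean of 6 or more.

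Set against silica directly, iron oxide gave 34 members higher and 9 lower without LPS, or 34.1% of the members called. That share stands beside 39.1% of genes with a mean of 6 or more (22.9% higher and 16.2% lower) and 26.1% of all genes. Without SPIO 2 the count of members called was 27. The largest rises were those of Slc22a4 (0.82 ± 0.0862), Slc6a8 (0.75 ± 0.0519), Slc48a1 (0.57 ± 0.0503), Slc9a3r1 (0.53 ± 0.0435) and Slc31a1 (0.44 ± 0.0477), and the largest fall was that of Slc7a5 (-0.36 ± 0.0577). In SPIO-LPS against Silica-LPS, 27 members were higher and 11 lower, or 30.2% of the members called. That share stands beside 37.1% of genes with a mean of 6 or more (18.1% higher and 18.9% lower) and 25.1% of all genes. Slc22a4 had 8.16, 8.11 and 8.29 in SPIO-LPS, against 7.07, 6.99 and 7.0 in Silica-LPS, a rise of 1.16 ± 0.0862 (adjusted p = 8.23e-08). Slc39a4 (0.93), Slc48a1 (0.88), Slc6a8 (0.59) and Slc66a1 (0.53) were also higher, while Slc13a3 (-0.79), Slc16a1 (-0.55) and Slc12a9 (-0.52) were lower. Slc16a1 had 8.78, 8.78 and 9.01 in SPIO-LPS, against 9.43, 9.44 and 9.37 in Silica-LPS, so that these particles left the lactate carrier on opposite sides of its level with LPS alone, though the silica side was not called. Fibroblast genes summed to 35435 to 36443 in SPIO and 45687 to 48406 in Silica, with 12 of 14 called lower, and 7 of 12 neutrophil genes were called lower and 1 higher. With LPS, fibroblast genes summed to 28310 to 29184 in SPIO-LPS and 36358 to 36646 in Silica-LPS, with 12 of 14 called lower, and 8 of 12 neutrophil genes were called lower and 1 higher. Their part in the members' differences between the particles was not tested.

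**Figure D5:**
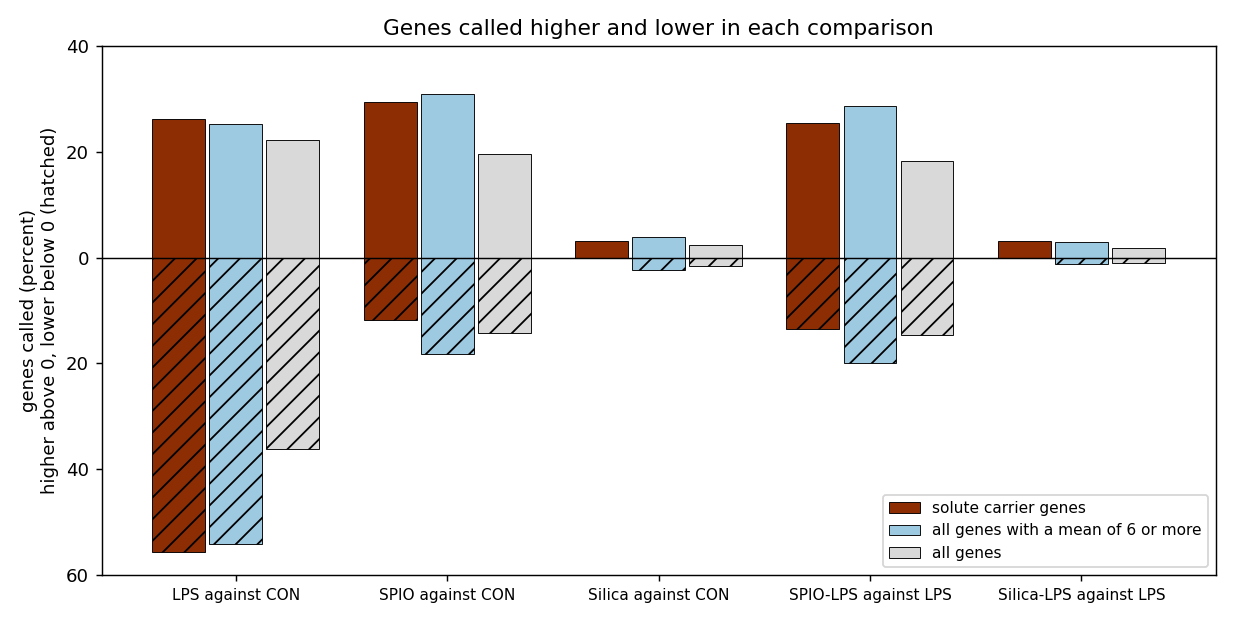
Percent of genes called higher (above 0) and lower (hatched, below 0) by limma in 5 comparisons, for the 126 solute carriers, for genes with a mean of 6 or more and for all genes. In LPS against CON the share called in either direction is 81.7% for members and 79.5% for genes of like signal. In the other comparisons the members' share is lower: 41.3% and 49.1% for SPIO against CON, 3.17% and 6.23% for Silica against CON, 38.9% and 48.5% for SPIO-LPS against LPS, and 3.17% and 4.25% for Silica-LPS against LPS. With cyclic loess the members' split under LPS is 44 higher and 49 lower in place of 33 and 70.

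The carriers set aside from the members were measured too. LPS minus CON was 4.70 for the cystine carrier Slc7a11, 4.16 for the arginine carrier Slc7a2, 2.16 for the iron importer Slc11a2, 1.41 for the glucose carrier Slc2a1 and -3.64 for the iron exporter Slc40a1. SPIO-LPS minus LPS was 2.79 for Slc40a1 and 1.42 for Slc7a11. A list of 29 partners and regulators of carrier genes had 22 measured, of which 9 rose and 10 fell with LPS, 8 rose and 4 fell with SPIO, and 7 rose and 3 fell in SPIO-LPS against LPS. Slco3a1, an organic anion carrier of another symbol, rose by 3.63 with LPS, the phosphate exporter Xpr1 fell by 1.48 and Emb, a chaperone of monocarboxylate carriers, fell by 0.75. Mpc1, a subunit of the mitochondrial pyruvate carrier, differed by 0.76 in SPIO against CON and by 0.75 in SPIO-LPS against LPS.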

How the data were processed

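The authors deposited 1 log2 signal per probe set and array, made with RMA per the submitters' processing notes. Software and settings of that step are not stated in the labels, and the file holds no detection calls. Of 22690 probe sets, 64 were controls. The annotation gave 1 symbol for 20380, several for 691 and none for 1555, and 20351 symbols were updated by gene identifier. Of 12393 genes, 4956 had more than 1 probe set and the one with the highest mean was used.

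In R 4.3.3 with limma 3.58.1, each group's mean was estimated from a fit on all 18 arrays, contrasts were moderated with eBayes, and p-values were adjusted by Benjamini and Hochberg over all genes within each of 9 contrasts. A gene was called at an adjusted p below 0.05, and standard errors are the moderated ones. In 95% intervals the number of arrays limits the precision. The fit was tested on simulated data, where it recovered 32.8% of log2 changes of 0.25, 86.6% of 0.5 and 100% of 1. Small changes can therefore go uncalled. Same-numbered arrays of different groups deviated together at r over 0.1 in 8 of 45 pairs (range -0.315 to 0.187), so replicate numbers were not used as pairs.

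Members, classes, marker lists and motifs were chosen with earlier results of these data known. Named were, in each of 5 comparisons against CON or LPS, up to 10 largest rises and falls among called members without overlap between arrays (5 in the others), the largest change per class, the 5 most level members and fixed genes. Of the fixed genes, Slc16a3 (mean of 5.08) was below the threshold, Slc28a2 had only a probe set with several symbols and Slc2a6 was not analysed here. Other members named inside a class, the windows printed and the placing of Slc4a1ap among members that are no carriers were chosen after values were seen. Classes follow family numbers, so Slc43a3 counts with the amino acid carriers and every Slc25 member, Slc25a17 and Slc25a46 included, with the mitochondrial carriers. Alternatives were cyclic loess, a replicate block, a fit on only the groups compared, a robust prior with variance trend, dropping the 33.3% of genes with the lowest means, averaging each gene's probe sets, testing every probe set separately, array weights, a mean of 7 or no threshold, and each array left out. Figures were drawn with Python 3.11.15 and matplotlib 3.10.9.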

Additional observations from a re-analysis of the deposited data

Results flagged for a closer look

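The interaction of iron oxide with LPS was called for 17 members by limma. That is 13.5% of the members, beside 13.4% of genes with a mean of 6 or more and 8.8% of all genes, so the share did not stand out. Of the members named by the rule, the interaction was -0.79 for Slc16a1, -0.60 for Slc9a3r1, -0.60 for Slc12a9, -0.43 for Slc25a24 and -0.39 for Slc31a2. It was 0.68 for Slc39a4, 0.64 for Slc25a33, 0.49 for Slc22a4, 0.41 for Slc43a3 and 0.34 for Slc48a1. The calls of Slc25a24, Slc43a3 and Slc22a4 were lost when certain single arrays were left out, as given above. Slc16a1 and Slc25a33 were the members whose iron oxide difference was called in opposite directions with and without LPS.

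A probe set left out of the gene tests, because it carries the symbols of both Slc28a2b and Slc28a2, nucleoside carriers, also differed between LPS and CON. It had 10.98, 11.05 and 10.83 in LPS, against 5.73, 5.71 and 5.80 in CON, a difference of 5.21 ± 0.0812 (SE). It had 9.73, 9.97 and 9.77 in SPIO-LPS, against those LPS values, and SPIO-LPS minus LPS was -1.13 ± 0.0812 (adjusted p = 3.8e-08 by limma). Which of the 2 genes gave the signal cannot be told apart with this probe set.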

How the results depend on the processing

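No named value changed sign under any alternative run. Of 160 named values, 128 kept their side of the threshold throughout, 22 of 112 called ones lost their call somewhere and 10 others gained one. The count for Silica against CON (4) was 2 with only the compared groups, 13 with a variance trend and robust prior, 12 without the dimmest genes and 13 with array weights. The count for Silica-LPS against LPS (4) was 0, 7 and 7 under the first 3 of these, SPIO-LPS against LPS (49) had 30 and the iron oxide interaction (17) had 10 with only the compared groups. The cause was not tested, beyond the fewer arrays in that fit. With each array left out, counts ran from 96 to 104 for LPS against CON, 39 to 53 for SPIO against CON, 1 to 5 for Silica against CON, 37 to 53 for SPIO-LPS against LPS, 1 to 6 for Silica-LPS against LPS, 10 to 17 for the iron oxide interaction, 0 to 0 for the silica interaction, 27 to 46 for SPIO against Silica and 28 to 39 for SPIO-LPS against Silica-LPS. With the replicate block the counts were 103, 51, 4, 48, 3, 17, 0, 40 and 35 in that order, and the numbers share no stated source. With 3 arrays a group the median 95% half-interval of a difference was 0.17, and signals near the low end of the scale understate differences.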

Other observations

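Of the 128 genes with the symbol pattern and a mean below 6, 23 were called higher and 7 lower in LPS against CON, and 1 higher and 8 lower in SPIO against CON. Over all genes, 22.2% were called higher and 36.1% lower with LPS, and 19.6% and 14.2% with SPIO. Most genes in those shares had a higher signal. The share among genes of like low signal was not counted, so these counts say nothing particular about low carriers. Slc39a8, a zinc importer, averaged 5.75 in LPS and 6.49 in CON, a difference of -0.73 ± 0.147 (SE). Slc46a1, a folate and heme carrier, differed by -0.64 ± 0.132, and Slc16a3, the lactate exporter MCT4, by 0.54 ± 0.131 with LPS and by 0.53 ± 0.131 in SPIO-LPS against LPS. A probe set shared by Slc9a7 and another symbol differed by -2.16 in LPS against CON.

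Of called members with several probe sets, 51 in LPS against CON, a further probe set was called for 36 and went the same way throughout for 34. In SPIO against CON these counts were 24, 11 and 10, and in SPIO-LPS against LPS 19, 11 and 11.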
